A study of Mus musculus with 18 samples.

Results

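The PYHIN (Ifi200) family was followed through its 6 members Aim2, Ifi203, Ifi204, Ifi205, Mndal and Pyhin1, chosen by gene symbol, which are 6 of the 37620 Ensembl gene IDs counted in each of 18 bulk RNA libraries of mouse MO4 melanoma. Pyhin1 stands in the annotation used here under the symbol Ifi209 (ENSMUSG00000043263). The tumours were grown from MO4 cells, a B16F10 derivative that expresses ovalbumin, placed under the skin of the right and left hindlimbs of C57BL/6 mice on day 0 (100000 cells a side), and their RNA was taken on day 11. IFN-alpha-pMC mice received cells labelled IFN-α-iPSC-pMCs, pMC mice received cells labelled iPSC-pMCs, in both cases 1000000 cells beside the right tumour on each of days 5, 6 and 7, and control mice received no cells. Each treatment gave 3 libraries of right tumours (the injected side) and 3 of left tumours (distant), 6 groups in all. The labels do not say that libraries of a group came from separate animals, so the tests see only library-to-library spread, which may be technical.

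PYHIN proteins pair a pyrin domain, through which they bind other pyrin-domain proteins, with HIN domains that bind DNA. Aim2 is the cytosolic DNA sensor that assembles an inflammasome with the adaptor Pycard (ASC) and caspase-1, which cleaves gasdermin D. Ifi204 is the mouse gene usually set beside human IFI16, a nuclear and cytosolic DNA sensor tied to STING signalling. Mndal, Ifi203, Ifi205 and Pyhin1 encode mainly nuclear proteins with roles in transcription, and Ifi205 has been tied to transcription of Pycard in macrophages. Interferons induce many mouse PYHIN genes, and macrophages and other leukocytes are known to express them.

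All 14 PYHIN rows in the count files (the 6 members and 8 others) lie in 1 stretch of chromosome 1 in GENCODE M21, with Aim2 at 1 end and Ifi205 at the other, and 7 other annotated genes lie between them. The files were counted on mm9, so coordinates below belong only to the printed sequence, RefSeq on GRCm38.p6. Of the 6 members, 5 had an entry in the promoter table, as did 7 of the other 8 rows. Ifi204 and Ifi203-ps had none, so their promoters were not searched. The 300-base windows (250 bases before to 50 after each annotated start) were searched on both strands for the core of the interferon-stimulated response element (GAAA, any 2 bases, then GAAA) and for TTCNNNGAA, the gamma-activated site. The ISRE core stood in a window of 3 of these 5 members (Ifi203, Ifi205 and Mndal) and of 6 of the 7 other rows (Ifi206, Ifi207, Ifi208, Ifi211, Ifi213 and Ifi214), against 3.99% of 27025 genes. Several of these windows are near copies of each other, so the genes do not count as independent occurrences. TTCNNNGAA stood in none of the 5 members and in 1 of the 7 other rows (Ifi202b), against 9.55% of genes.

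One run recurred. GAAATCGAAA stood in windows of 7 PYHIN genes, Ifi203, Mndal, Ifi206, Ifi207, Ifi208, Ifi213 and Ifi214, and in 16 of 32851 windows overall (0.0487%). The letters around the run were nearly the same in Ifi206, Ifi208 and Ifi213, and in Ifi203 and Mndal, so these 7 are not independent occurrences. The run began 35 bases before an annotated start of Ifi203, 36 bases before one of Mndal and 79 bases before that of Ifi214. Pyhin1 held no ISRE core, but its 250 bases were 94.4% identical to those of Ifi214, and its closest window, also 79 bases before the start, read TAAATCGAAA. Counted from 1 at the 5′ end of the run, that window differs from GAAATCGAAA by G1T, and 1.38% of all windows held a run with at most 1 such difference. This run was picked after the family's sequences had been read, and a match or its absence is a description of letters, not of a bound factor. The 250 bases before 1 start each of Ifi203, Mndal (89.3% identical to each other), Ifi205, Pyhin1, Ifi214 and Aim2 are shown because they carry the run, a variant of it, or neither, and capitals mark the ISRE core or, in Pyhin1, the closest window.
Ifi203 (chr1:173942493-173942742, minus strand): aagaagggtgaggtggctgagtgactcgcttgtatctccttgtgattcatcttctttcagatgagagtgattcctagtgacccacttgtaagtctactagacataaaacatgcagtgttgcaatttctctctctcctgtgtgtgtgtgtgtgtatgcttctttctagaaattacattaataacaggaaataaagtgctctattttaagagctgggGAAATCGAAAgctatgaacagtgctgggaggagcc
Mndal (chr1:173880188-173880437, minus strand): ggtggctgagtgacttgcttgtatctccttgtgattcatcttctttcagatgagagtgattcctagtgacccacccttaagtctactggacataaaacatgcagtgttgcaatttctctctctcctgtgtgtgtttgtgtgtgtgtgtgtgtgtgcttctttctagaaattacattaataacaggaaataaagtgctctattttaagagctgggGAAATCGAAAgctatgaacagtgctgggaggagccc
Ifi205 (chr1:174031756-174032005, minus strand): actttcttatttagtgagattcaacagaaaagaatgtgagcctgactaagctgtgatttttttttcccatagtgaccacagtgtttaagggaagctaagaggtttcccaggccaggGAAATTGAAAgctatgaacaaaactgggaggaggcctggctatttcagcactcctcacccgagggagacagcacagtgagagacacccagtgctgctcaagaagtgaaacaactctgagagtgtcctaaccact
Pyhin1 (chr1:173630609-173630858, plus strand): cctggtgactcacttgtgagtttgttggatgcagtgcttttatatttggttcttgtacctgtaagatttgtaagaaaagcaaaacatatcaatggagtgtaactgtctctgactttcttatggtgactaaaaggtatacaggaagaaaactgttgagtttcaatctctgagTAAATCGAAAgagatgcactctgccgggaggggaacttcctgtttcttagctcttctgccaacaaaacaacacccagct
Ifi214 (chr1:173535958-173536207, minus strand): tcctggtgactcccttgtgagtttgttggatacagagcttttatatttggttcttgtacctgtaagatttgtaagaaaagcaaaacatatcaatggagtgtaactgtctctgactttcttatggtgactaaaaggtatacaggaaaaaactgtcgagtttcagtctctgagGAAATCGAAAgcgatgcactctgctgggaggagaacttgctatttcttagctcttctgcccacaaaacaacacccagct
Aim2 (chr1:173420354-173420603, plus strand): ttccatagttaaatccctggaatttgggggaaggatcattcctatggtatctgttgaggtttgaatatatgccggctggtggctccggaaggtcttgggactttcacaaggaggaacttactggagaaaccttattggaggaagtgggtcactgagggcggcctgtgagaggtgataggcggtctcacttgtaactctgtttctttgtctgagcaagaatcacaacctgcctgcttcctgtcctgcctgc

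The values are raw counts of read pairs, expressed here as counts per 1000000 counts of the library (CPM). Library totals ran from 14346091 to 23430259 counts, and the 6 members together held 5070 to 14116 counts in IFN-alpha-pMC libraries and 2355 to 4616 counts in pMC and control libraries. All 6 members passed the filter on low counts. The library labelled right control 3, the library labelled right IFN-alpha-pMC 3 and the library labelled left IFN-alpha-pMC 1 each had the lowest mean rank correlation of their group with its other libraries (0.945, 0.963 and 0.968). Test results of the 6 members are given with and without these 3 libraries. They were named with earlier results known and are not the 3 lowest of all, since right control 2 had 0.958 and was kept. PYHIN genes resemble each other closely, and pairs that aligned to more than 1 place (18.38 to 24.34% of pairs per library) or to overlapping genes (2.28 to 2.93%) are not in the counts. Of the 50-base windows of each member's transcripts, 33.7% of those of Pyhin1, 20% of Ifi204, 19.6% of Mndal, 18.6% of Ifi205, 12.4% of Ifi203 and 0.7% of Aim2 also stood in a transcript of another gene. Mndal and Ifi203 overlap on the same strand and share 37 exon bases. Levels of all members except Aim2 are therefore uncertain, and part of the reads of one may have gone uncounted or to a paralog.

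Every member was higher in IFN-alpha-pMC tumours than in control tumours on both sides, and 5 of 6 passed the test on the right and 6 of 6 on the left. All 3 IFN-alpha-pMC libraries lay above all 3 control libraries for 6 of 6 members on each side. Among all 14849 genes tested, 8.78% passed as higher on the right and 4.05% on the left, and 13.5% and 17.8% had such separate groups. The members' median log2 fold change was 1.75 on the right and 1.28 on the left, against -0.03 and 0.07 over all genes tested. Log2 fold changes, their standard errors and adjusted p-values are from edgeR's quasi-likelihood test with Benjamini-Hochberg adjustment over all genes.

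**Figure D1:**
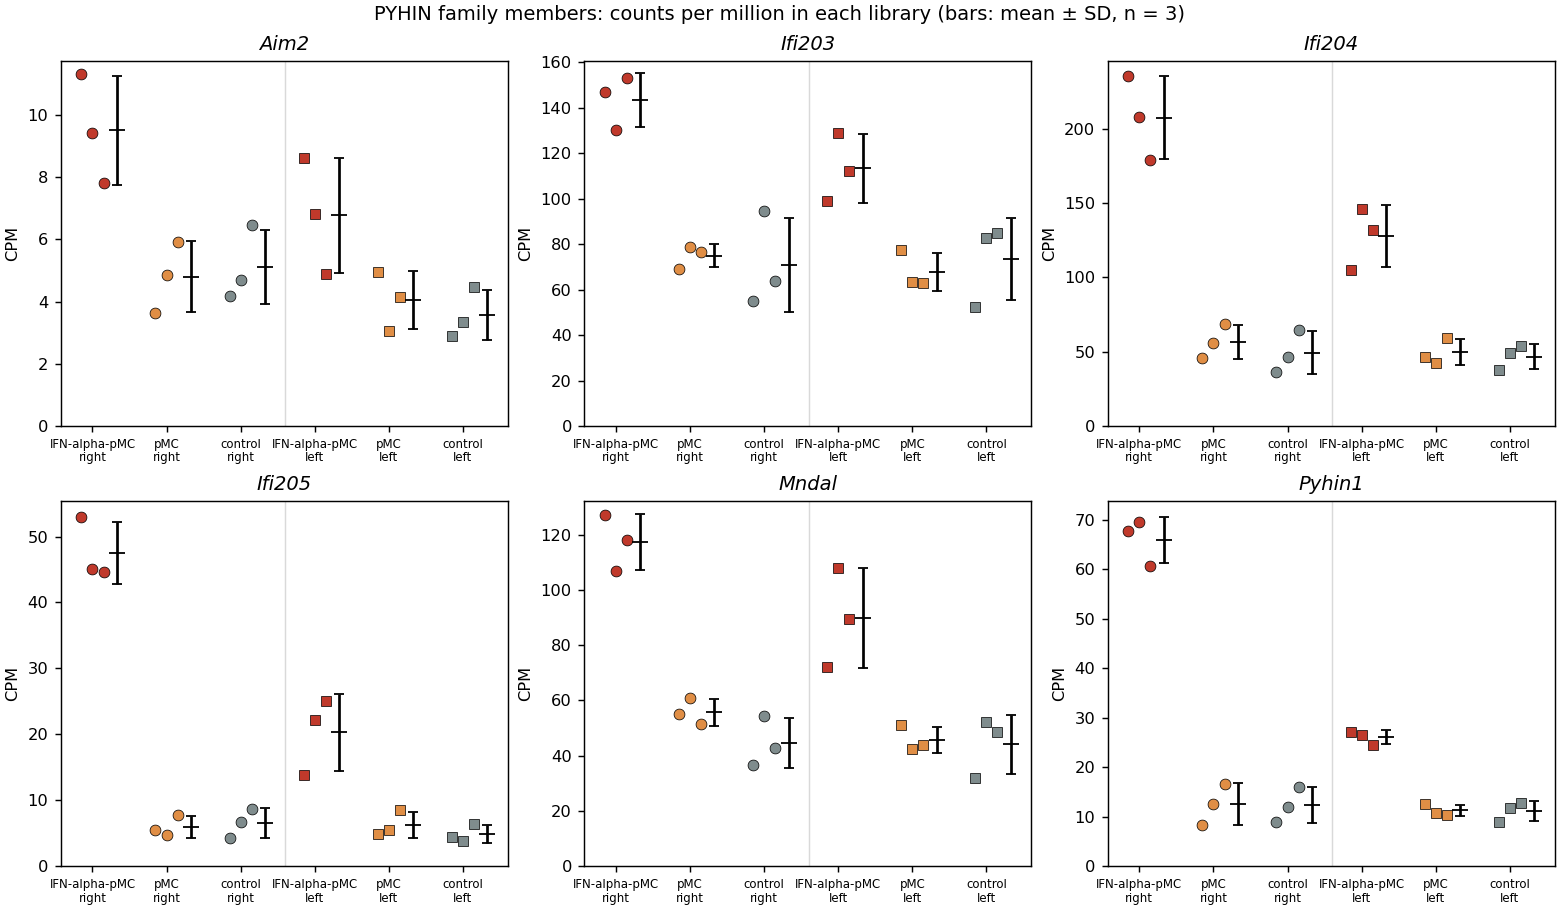
CPM (y axis, from 0, own scale in each panel) of the 6 members in each of 18 libraries, by treatment and side, with the mean and SD of 3 libraries as bars. On the right all IFN-alpha-pMC points lie above the pMC and control points, and for Pyhin1 the right IFN-alpha-pMC libraries (60.7 to 69.5 CPM) lie far above the left ones (24.4 to 27.2 CPM).

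Of the DNA sensors, Ifi204 was the more abundant, with the larger fold changes. On the right Ifi204 had 235, 208 and 179 CPM in IFN-alpha-pMC tumours, 45.6, 55.8 and 68.4 CPM in pMC tumours and 36.4, 46.7 and 64.7 CPM in control tumours. On the left it had 105, 146 and 132 CPM in IFN-alpha-pMC tumours, 46.7, 42.7 and 59.4 CPM in pMC tumours and 37.5, 49.1 and 53.5 CPM in control tumours. The IFN-alpha-pMC libraries did not overlap the others on either side, while pMC and control overlapped. The difference from control was 4.23-fold on the right (log2 2.08 ± 0.26 SE, adjusted p = 4.57e-05) and 3.02-fold on the left (1.59 ± 0.25, adjusted p = 0.0047).

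Aim2 was the least abundant member, with 173 to 595 counts summed over the 3 libraries of a group. On the right it had 11.3, 9.41 and 7.81 CPM in IFN-alpha-pMC tumours, 3.63, 4.86 and 5.9 CPM in pMC tumours and 4.17, 4.7 and 6.45 CPM in control tumours. On the left it had 8.6, 6.82 and 4.9 CPM in IFN-alpha-pMC tumours, 4.94, 3.06 and 4.15 CPM in pMC tumours and 2.88, 3.35 and 4.46 CPM in control tumours. The lowest left IFN-alpha-pMC library fell within the pMC range and lay just above the control range. On the right Aim2 did not pass against control (0.91 ± 0.31, adjusted p = 0.0718), and on the left it passed narrowly (1.1 ± 0.32, adjusted p = 0.0493). Both calls were marginal. The right value passed with DESeq2 (0.87, adjusted p = 0.0476), without right control 3 (1.21, adjusted p = 0.0131) and without right IFN-alpha-pMC 3 (0.99, adjusted p = 0.0444), fits in which 14.3%, 26.1% and 20.7% of all genes passed in either direction. The left call was lost without any 1 library of the compared groups other than left IFN-alpha-pMC 3 (adjusted p = 0.114 to 0.16). In those fits 0.569 to 2.61% of all genes passed in either direction, against 6.65% with every library.

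Ifi203 and Mndal, neighbours on the chromosome and both abundant at baseline, had smaller fold changes than Ifi204, Ifi205 and Pyhin1. Ifi203 on the right had 147, 130 and 153 CPM in IFN-alpha-pMC tumours, 69.2, 78.9 and 76.4 CPM in pMC tumours and 54.8, 94.4 and 63.6 CPM in control tumours. On the left it had 99, 129 and 112 CPM in IFN-alpha-pMC tumours, 77.5, 63.2 and 62.7 CPM in pMC tumours and 52.5, 82.7 and 85 CPM in control tumours. No IFN-alpha-pMC library reached down into the pMC or control range on its side, and the control groups had the wider spread. Ifi203 rose 2.06-fold over control on the right (1.05 ± 0.19, adjusted p = 0.0015) and 1.71-fold on the left (0.78 ± 0.19, adjusted p = 0.0345). The right call was lost when only the 2 groups were fitted (0.98, adjusted p = 0.082), where 4.04% of all genes passed in either direction. With all groups 10.8% did. The left call was lost without any 1 of the 6 libraries compared (adjusted p = 0.0501 to 0.147). In those left fits 0.569 to 3.26% of all genes passed, against 6.65% with every library.

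Mndal on the right had 127, 107 and 118 CPM in IFN-alpha-pMC tumours, 54.9, 60.9 and 51.3 CPM in pMC tumours and 36.6, 54.2 and 42.9 CPM in control tumours. On the left it had 72, 108 and 89.3 CPM in IFN-alpha-pMC tumours, 51, 42.3 and 43.9 CPM in pMC tumours and 32, 52 and 48.5 CPM in control tumours. The IFN-alpha-pMC libraries stood clear of the others on both sides. Mndal rose 2.69-fold over control on the right (1.43 ± 0.19, adjusted p = 7.77e-05) and 2.24-fold on the left (1.17 ± 0.19, adjusted p = 0.00502).

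Ifi205 and Pyhin1, low in control tumours, showed the largest fold changes among the members on the right. Ifi205 on the right had 52.9, 45.1 and 44.6 CPM in IFN-alpha-pMC tumours, 5.45, 4.67 and 7.82 CPM in pMC tumours and 4.22, 6.67 and 8.74 CPM in control tumours. On the left it had 13.8, 22.1 and 25 CPM in IFN-alpha-pMC tumours, 4.81, 5.41 and 8.55 CPM in pMC tumours and 4.46, 3.76 and 6.46 CPM in control tumours. The 3 right IFN-alpha-pMC libraries lay above all left ones, which in turn lay above every pMC and control library. Ifi205 rose 7.32-fold over control on the right (2.87 ± 0.32, adjusted p = 2.18e-05) and 4.53-fold on the left (2.18 ± 0.32, adjusted p = 0.00337).

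Pyhin1 on the right had 67.8, 69.5 and 60.7 CPM in IFN-alpha-pMC tumours, 8.37, 12.6 and 16.7 CPM in pMC tumours and 9.02, 12 and 16.1 CPM in control tumours. On the left it had 27.2, 26.6 and 24.4 CPM in IFN-alpha-pMC tumours, 12.6, 10.8 and 10.4 CPM in pMC tumours and 8.86, 11.8 and 12.7 CPM in control tumours. Here too the groups formed 3 levels that did not overlap: right IFN-alpha-pMC, left IFN-alpha-pMC and all others. Pyhin1 rose 5.36-fold over control on the right (2.42 ± 0.27, adjusted p = 2.18e-05) and 2.62-fold on the left (1.39 ± 0.27, adjusted p = 0.0106). The left call was lost without left control 1, 2 or 3 (adjusted p = 0.0705, 0.054 and 0.0524), where the log2 fold change was 1.21, 1.39 and 1.46. In these fits 0.787%, 0.747% and 0.569% of all genes passed in either direction, against 6.65% with every library. The left Pyhin1 call was also lost with a skeletal muscle score as a covariate (1.63, adjusted p = 0.0586), where 0.606% of all genes passed.

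Set against pMC tumours, which received the cells without the IFN-α label, the IFN-alpha-pMC tumours gave nearly the same picture. These comparisons share their IFN-alpha-pMC libraries with those against control. On the right 5 of 6 members passed as higher, against 8.88% of all genes tested, with Ifi205 at 2.96 ± 0.32 (adjusted p = 1.74e-05), Pyhin1 at 2.36 ± 0.27 (adjusted p = 2.74e-05) and Ifi204 at 1.85 ± 0.25 (adjusted p = 0.00011). Mndal (1.05 ± 0.19, adjusted p = 0.0011) and Ifi203 (0.9 ± 0.19, adjusted p = 0.00493) also passed, and Aim2 did not (0.96 ± 0.31, adjusted p = 0.0608), although its libraries did not overlap. All right IFN-alpha-pMC libraries lay above all pMC libraries for 6 of 6 members (17.8% of all genes), and on the left for 5 of 6 (15.8%). On the left 5 of 6 passed, against 2.71% of all genes, at 0.85 (Ifi203) to 1.78 (Ifi205), and Aim2 did not (0.86 ± 0.31, adjusted p = 0.0925). These 5 left calls depended on single libraries, as did those of all genes: 0 of 6 members passed without left pMC 2 and 0 without left IFN-alpha-pMC 2, 1 without left pMC 1, 2 without left pMC 3, and 2 with a skeletal muscle score as a covariate, although the log2 fold changes of the 5 members stayed between 0.78 and 2.08 in these fits. Over all genes, 3.85% passed in either direction with every library, and 0.251%, 0.219%, 0.306%, 0.226% and 0.377% in these 5 fits.

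pMC tumours did not differ detectably from control tumours in any member. With edgeR 0 of 6 members passed on the right and 0 of 6 on the left, and 0% of all genes passed on either side. DESeq2 called 0 members, and 0 had an unadjusted edgeR p under 0.05. The log2 fold changes ran from -0.09 (Ifi205) to 0.38 (Mndal, SE 0.18, unadjusted p = 0.0563 in the edgeR fit) on the right and from -0.07 (Ifi203) to 0.4 (Ifi205, SE 0.32) on the left. pMC and control libraries overlapped for every member on both sides, while 1.76% of all genes had every right pMC library above every control library and 7.27% did on the left. Without the 3 libraries named above, Ifi204 alone of the 6 members passed on the right (0.59 ± 0.19, adjusted p = 0.0288), in a fit where 33.7% of all genes passed, a larger share than 1 of 6.

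**Figure D2:**
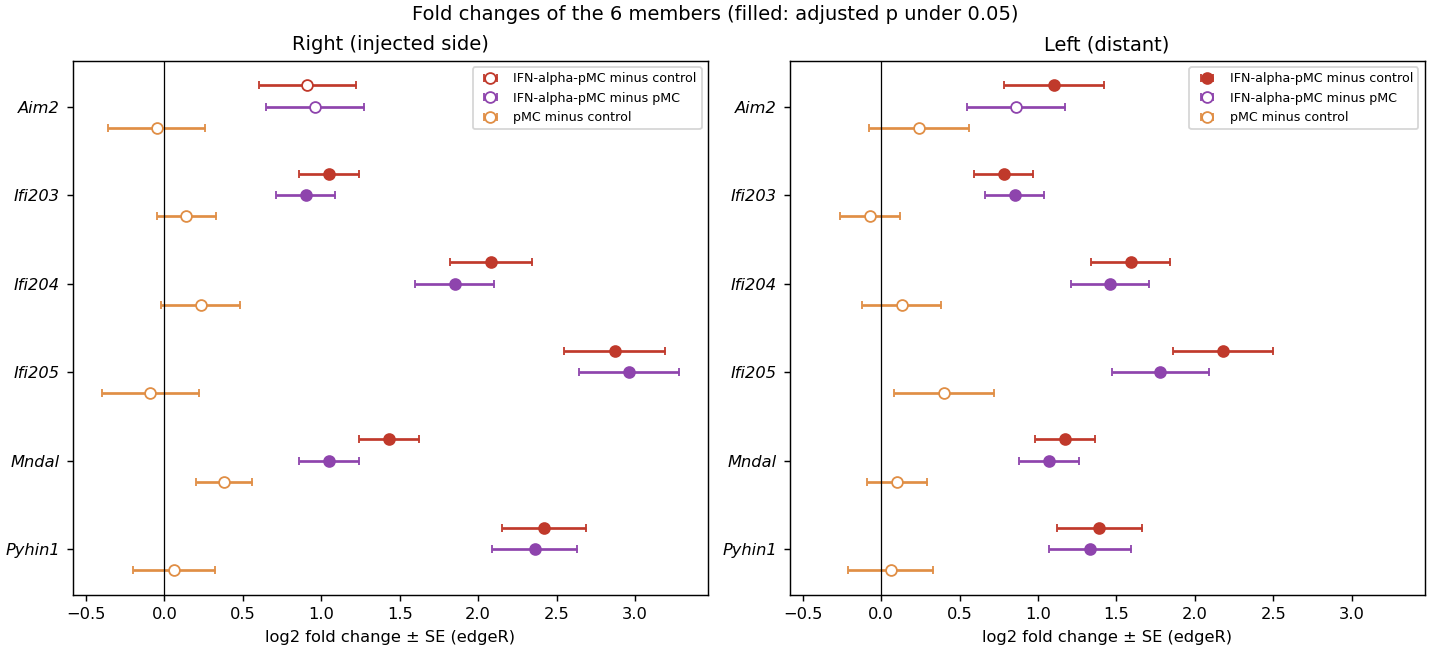
Log2 fold change ± SE (x axis) of each member on the right and left for IFN-alpha-pMC minus control, IFN-alpha-pMC minus pMC and pMC minus control; filled points passed at an adjusted p under 0.05. The pMC minus control values lie between -0.09 and 0.4, and the IFN-alpha-pMC values between 0.78 and 2.96.

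Between the injected and the distant side of the IFN-alpha-pMC mice, 1 of 6 members passed as higher on the right, against 2.49% of all genes tested. Pyhin1 was 2.36-fold higher on the right (1.24 ± 0.26, adjusted p = 0.0145). Ifi205 was close to the threshold at 1.16 ± 0.3 (adjusted p = 0.0504). It passed with DESeq2, with no filter on low counts, when only the 2 groups were fitted and without the 3 libraries named above (adjusted p = 0.0368 in the last of these). In these fits 3.95%, 1.62%, 1.33% and 5.75% of all genes passed in either direction, against 2.53% in the fit used here. Ifi204 (0.62 ± 0.25, adjusted p = 0.297), Aim2 (0.38 ± 0.31), Mndal (0.3 ± 0.18) and Ifi203 (0.24 ± 0.19) did not pass, although right and left libraries did not overlap for Ifi204 and Ifi203. In all 4 of 6 members had separate sides, against 11.9% of all genes. Pyhin1 lost its call without right IFN-alpha-pMC 2, left IFN-alpha-pMC 2 or left IFN-alpha-pMC 3 (adjusted p = 0.0578, 0.0721 and 0.0746) at a log2 difference of 1.15 to 1.22. There 1.47%, 1.06% and 1.54% of all genes passed in either direction.

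Right and left tumours of pMC mice and of control mice did not differ in any member in either test. Both edgeR and DESeq2 called 0 of 6 members and 0% of all genes. An unadjusted edgeR p under 0.05 was seen for 0 members, and for 310 of 14849 genes in pMC mice and 116 in control mice. Right pMC libraries lay above all left ones for 1 of 6 members, Mndal, against 6.96% of all genes, and right control libraries above left ones for 0 of 6, against 0.936%. The difference between sides in the effect itself, the right effect minus the left effect, was tested separately. Against control it passed for 0 of 6 members with edgeR (0% of all genes) and 0 with DESeq2 (0.586%). An unadjusted edgeR p under 0.05 was seen for 1 of 6 (Pyhin1) and for 918 of 14849 genes. Against pMC the side difference also passed for 0 of 6 members with edgeR (0.391% of all genes) and 0 with DESeq2 (1.83%). An unadjusted edgeR p under 0.05 was seen for 2 of 6 (Ifi205 and Pyhin1) and for 1748 of 14849 genes. Pyhin1's side difference was 1.03 ± 0.37 against control (adjusted p = 0.534) and 1.03 ± 0.37 against pMC (adjusted p = 0.297). Without the 3 libraries named above it was 1.56 ± 0.33 against control and passed (adjusted p = 0.0226), as did 5.07% of all genes, and 1.22 ± 0.31 against pMC and did not (adjusted p = 0.112).

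Without those 3 libraries all 6 members passed against control on each side, with log2 fold changes of 1.01 (Ifi203) to 3.28 (Ifi205) on the right and 0.78 (Aim2 and Ifi203) to 2.31 (Ifi205) on the left. In that fit 54.4% of all genes passed in either direction on the right and 28.8% on the left, so the 6 calls stand against a much higher background. Aim2 was 1.33 ± 0.28 on the right (adjusted p = 0.00113) and 0.78 ± 0.26 on the left (adjusted p = 0.0384).

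Levels of different genes were compared per kilobase of exon. In right IFN-alpha-pMC tumours the order of mean CPM per kilobase was Ifi204 (58.3 ± 7.89 SD, n = 3), Mndal (32.4 ± 2.81), Ifi203 (21.4 ± 1.78), Pyhin1 (18.6 ± 1.32), Ifi205 (11.4 ± 1.12) and Aim2 (2.71 ± 0.495). In right control tumours it was Ifi204 (13.8 ± 4.03), Mndal (12.3 ± 2.45), Ifi203 (10.6 ± 3.1), Pyhin1 (3.49 ± 1), Ifi205 (1.57 ± 0.541) and Aim2 (1.46 ± 0.341). Both groups gave the same order of means, but in control tumours the first 3 lay within 1 SD of their neighbours, as did Ifi205 and Aim2. Ordered by mean CPM over the 6 groups, each member was highest in right and next highest in left IFN-alpha-pMC tumours, and for 5 of 6 members the left IFN-alpha-pMC libraries did not overlap the group below. Aim2 was the exception, with libraries overlapping at every step of its order. The share of all genes with such an order or such a gap was not computed, so these counts only describe the members.

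The make-up of the family's counts differed between treatments for some members. As a share of the counts of the 6 members, Ifi203 held 24.3 ± 2.47% in right IFN-alpha-pMC tumours and 37.4 ± 5.89% in right control tumours (SD, n = 3 each). Ifi205 held 8.04 ± 0.189% and Pyhin1 11.2 ± 0.894% in right IFN-alpha-pMC tumours, against 3.42 ± 0.774% and 6.56 ± 1.26% in right control tumours. Ifi204 held 35 ± 2.81% in right IFN-alpha-pMC tumours (lowest 31.8%) and 26.1 ± 5.39% in right control tumours (highest 32%), so that its ranges touched. On the left Ifi203 held 29.6 ± 0.725% in IFN-alpha-pMC tumours and 39.7 ± 1.49% in control tumours, Ifi204 33.2 ± 0.896% and 25.6 ± 1.46%, and Ifi205 5.24 ± 1.11% and 2.72 ± 0.749%. The Pyhin1 share overlapped on the left, at 6.9 ± 1.27% in IFN-alpha-pMC tumours and 6.09 ± 0.291% in control tumours. With 3 libraries a group an exact permutation test cannot give a two-sided p below 0.1, so these shares carry no test.

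**Figure D3:**
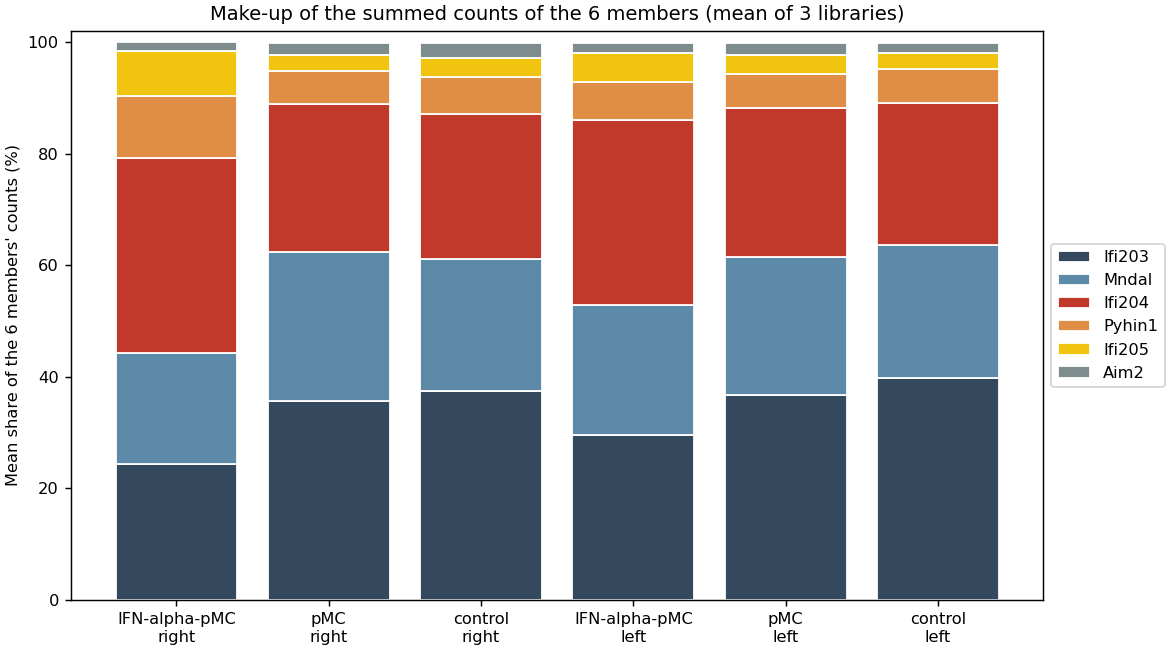
Mean share (y axis, %) of the summed counts of the 6 members held by each member in the 6 groups, each bar the mean of 3 libraries. The Ifi203 share is 24.3% (right) and 29.6% (left) with IFN-alpha-pMC and 35.6 to 39.7% in the other groups.

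Of the 8 other PYHIN rows, 7 passed the filter on low counts, and Ifi202b, whose product is known to hold back Aim2 signalling, had 0 counts in all 18 libraries, where 3 counts would be 0.128 to 0.209 CPM. On the right 6 of these 7 passed as higher in IFN-alpha-pMC than in control tumours, with a median of 2.19, against 8.78% of all genes tested. Ifi214 changed most (4.43 ± 0.49, adjusted p = 2.11e-05), with a mean of 4.82 ± 1.01 CPM in right IFN-alpha-pMC tumours and 0.226 ± 0.123 CPM in right control tumours, where its 3 libraries held 13 counts in all. Ifi208 (2.99 ± 0.33), Ifi213 (2.28 ± 0.22), Ifi211 (2.19 ± 0.27), Ifi206 (2.14 ± 0.29) and Ifi207 (1.64 ± 0.24) also rose. Ifi203-ps, annotated between Ifi204 and Mndal, did not pass (0.85 ± 0.42, adjusted p = 0.231). As 72.8% of the transcript windows of Ifi211 stand in other genes too, its level is the least certain of these.

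On the left 4 of the 7 passed, against 4.05% of all genes: Ifi214 (2.67 ± 0.49, adjusted p = 0.00961), Ifi208 (1.72 ± 0.33), Ifi211 (1.41 ± 0.27) and Ifi213 (1.07 ± 0.22). Ifi206 had 43.1 CPM at most and 20 CPM at least in right IFN-alpha-pMC tumours, and 6.03 to 8.56 CPM in left IFN-alpha-pMC tumours, close to the 4.99 to 7.92 CPM of left control tumours. Ifi206 was 3.38-fold (1.76 ± 0.29, adjusted p = 0.00303), Ifi213 2.31-fold (1.21 ± 0.21, adjusted p = 0.00516) and Ifi207 2.06-fold (1.04 ± 0.24, adjusted p = 0.0257) higher on the right than on the left within IFN-alpha-pMC mice. Ifi207 had 52, 54.5 and 101 CPM in the right libraries and 22.9 to 38.6 CPM in the left ones, so 1 right library stood far above the others. The right median of Ifi206 was 20 CPM, equal to its lowest value. Fits that leave out libraries are not given for these other rows. The side difference of the effect over control was 1.66 ± 0.4 for Ifi206 and did not pass (adjusted p = 0.166).

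**Figure D4:**
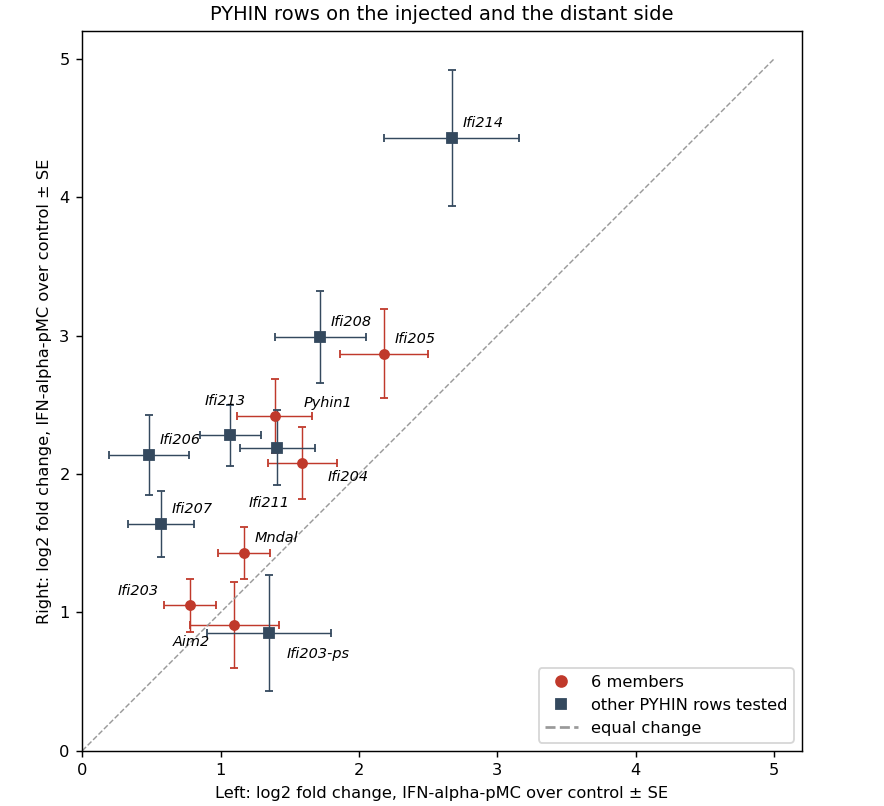
Log2 fold change of IFN-alpha-pMC over control ± SE on the right (y axis) against the left (x axis) for the 13 PYHIN rows tested, members as circles and other rows as squares, with a dashed line of equal change. Ifi214 lies highest at 4.43 on the right and 2.67 on the left, Ifi206 and Ifi207 lie farthest to the left at 0.48 and 0.57, and Aim2 and Ifi203-ps lie below the line.

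The genes that act with the PYHIN sensors moved unevenly. Beside the list counts that follow stand the shares of all genes tested that passed as higher, 8.78% on the right and 4.05% on the left. Of 10 inflammasome genes 4 passed as higher in IFN-alpha-pMC than in control tumours on the right (median 1.25) and 4 on the left (median 1.14). On the right these included Mefv, which encodes pyrin (3.2 ± 0.38, adjusted p = 3.18e-05), Casp1 (2.11 ± 0.32, adjusted p = 0.000266) and Gsdmd (1.52 ± 0.18, adjusted p = 3.97e-05). On the left they were Mefv (2.89 ± 0.44), Casp1 (1.8 ± 0.32), Casp4 (1.62 ± 0.42) and Gsdmd (1.01 ± 0.18). The adaptor Pycard had 35 ± 9.66 CPM in right IFN-alpha-pMC tumours and 16.5 ± 11.6 CPM in right control tumours and did not pass on the right (1.06 ± 0.5, adjusted p = 0.199) or the left (1.26 ± 0.5, adjusted p = 0.0948). Of 11 cytosolic DNA sensing genes, 9 were tested and 2 passed as higher on each side (medians 0.32 and 0.05). The receptor Zbp1 passed on the right (1.69 ± 0.2) and the left (1.45 ± 0.2). Cgas, the other main cytosolic DNA sensor, passed on the left (0.5 ± 0.13, adjusted p = 0.0418) and not on the right (0.32 ± 0.13, adjusted p = 0.151). Its partner Tmem173 (STING) passed on neither side (0.34 ± 0.17 and 0.02 ± 0.17).

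Most interferon target genes passed on both sides, and most genes of interferon signalling did not pass on the left. Of 13 genes of interferon signalling 7 passed as higher on the right (median 0.57) and 3 on the left (median 0.23), with Irf7, a master regulator of type I interferon genes, at 2.16 ± 0.18 on the right and 1.03 ± 0.18 on the left. Of 16 type I interferon targets 13 passed on the right (median 1.21) and 11 on the left (median 0.78), led on both sides by Ifi44 (2.06 ± 0.28 and 1.7 ± 0.28). Of 10 interferon-gamma targets 10 passed on the right (median 1.55) and 8 on the left (median 1.32). No gene of these 5 lists fell. In pMC against control tumours 0 of them passed on either side, as 0 of all genes did, and 359 genes on the right and 119 on the left had an unadjusted p under 0.05 with edgeR, while DESeq2 called 2 and 1.

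Leukocyte genes moved with the family, and in bulk tumour RNA more cells of a type and more RNA per cell cannot be told apart. Ptprc (CD45, carried by leukocytes) had 153 ± 24.6 CPM in right IFN-alpha-pMC tumours and 34.3 ± 12.1 CPM in right control tumours (2.17 ± 0.31, adjusted p = 0.000138), and 64 ± 10 CPM against 30.3 ± 8.04 CPM on the left (1.22 ± 0.3, adjusted p = 0.0327). Of 8 monocyte and macrophage markers 6 were higher on the right (median 1.62) and 3 on the left (median 0.76), and their summed level was 961 to 1160 CPM in right IFN-alpha-pMC against 267 to 374 CPM in right control tumours and 386 to 513 CPM against 277 to 334 CPM on the left. Of 8 T cell markers 8 were higher on the right (median 2.78) and 5 on the left (median 1.26), with sums of 163 to 210 CPM against 16.7 to 36.9 CPM on the right and 48.5 to 60.4 CPM against 17.8 to 34.3 CPM on the left. Of 5 NK cell markers 5 and 3 were higher (medians 2.84 and 1.74), with sums of 92 to 130 CPM against 9.12 to 23.3 CPM on the right and 30 to 35.2 CPM against 14.3 to 19.4 CPM on the left. No defining marker of these 3 lists was at 0 in any group, and their part in the members' differences was not tested.

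Other lists moved less or otherwise, and some of their counts lie near the 8.78% (right) and 4.05% (left) of all genes that passed as higher. Of 3 B cell markers tested 1 was higher on the right and 0 on the left (medians 1.24 and 0.81), with sums of 4 to 4.69 CPM against 2.04 to 2.97 CPM on the right. Of 8 markers of XCR1+ dendritic cells 0 passed on the right (median 0.44) and 2 on the left (median 0.56), with sums of 479 to 669 CPM against 376 to 718 CPM on the right. Of 4 plasmacytoid dendritic cell markers 2 and 1 were higher (medians 0.89 and -0.4), 1 of them Bst2, also an interferon target. Of 3 neutrophil markers tested 1 and 0 were higher (medians 2.14 and 0.75). Of 11 skeletal muscle genes tested 1 was higher on the right and 3 on the left (medians 2.74 and 3.26), with sums of 1830 to 4020 CPM in right IFN-alpha-pMC against 26.9 to 1060 CPM in right control tumours and 672 to 1110 CPM against 6.69 to 311 CPM on the left. Of 5 erythroid genes 5 fell on the right (2.01% of all genes fell) and 0 on the left (2.6%) (medians -2.66 and -0.78). Of 6 melanocyte genes 0 changed on either side (medians 0.07 and 0.35), with sums of 30400 to 41700 CPM over the groups. Of 3 endothelial genes 1 fell on the right and 0 on the left (medians -0.39 and -0.76), and of 4 fibroblast genes 2 and 1 were higher (medians 1.16 and 0.48). The part of these cell types in the members' differences was not tested.

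Measured against Ptprc in the same library, the members separated. On the right the mean log2 ratio of member to Ptprc (CPM over CPM) was lower in IFN-alpha-pMC than in control tumours, with no overlap, for Aim2 (-4 and -2.68), Ifi203 (-0.09 and 1.08) and Mndal (-0.37 and 0.43). It overlapped between the groups for Ifi204 (0.44 and 0.55) and Pyhin1 (-1.2 and -1.43), and was higher without overlap for Ifi205 (-1.68 and -2.36). The Ifi205 libraries on the right read -1.55, -1.5 and -1.98 in IFN-alpha-pMC tumours, -1.88, -2.97 and -2.62 in pMC tumours and -2.27, -2.71 and -2.1 in control tumours, so that IFN-alpha-pMC overlapped pMC. On the left Ifi204 (0.99 and 0.64) and Ifi205 (-1.68 and -2.61) were higher without overlap, Ifi203 was lower without overlap (0.83 and 1.28, though it overlapped the pMC libraries), and Aim2, Mndal and Pyhin1 overlapped. These ratios carry no test, since an exact permutation test of 3 against 3 libraries cannot pass. Ptprc itself rose by 2.17 in log2 on the right and 1.22 on the left, against medians of -0.03 and 0.07 over all genes tested. A gene that did not change would therefore also fall in this ratio. The share of all genes higher or lower without overlap was not computed.

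The choice of the gene set beside the members mattered. Against the mean of the macrophage genes Csf1r, Cd68 and Adgre1, Ifi205 and Pyhin1 were higher in IFN-alpha-pMC than in control tumours without overlap on the right (differences of 1.79 and 1.33 in log2 ratio) and on the left (1.9 and 1.12). Ifi204 (1.33) and Mndal (0.91) were higher without overlap on the left, and Ifi204 overlapped on the right (1). For Mndal on the right the difference from control was 0.3 against these genes, with overlapping libraries, and -0.8 against Ptprc, without overlap. The difference from pMC was -0.23 (overlapping) and -1.11, of 1 sign with both. Aim2 and Ifi203 overlapped on both sides. The share of all genes without overlap was not computed for these ratios either.

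**Figure D5:**
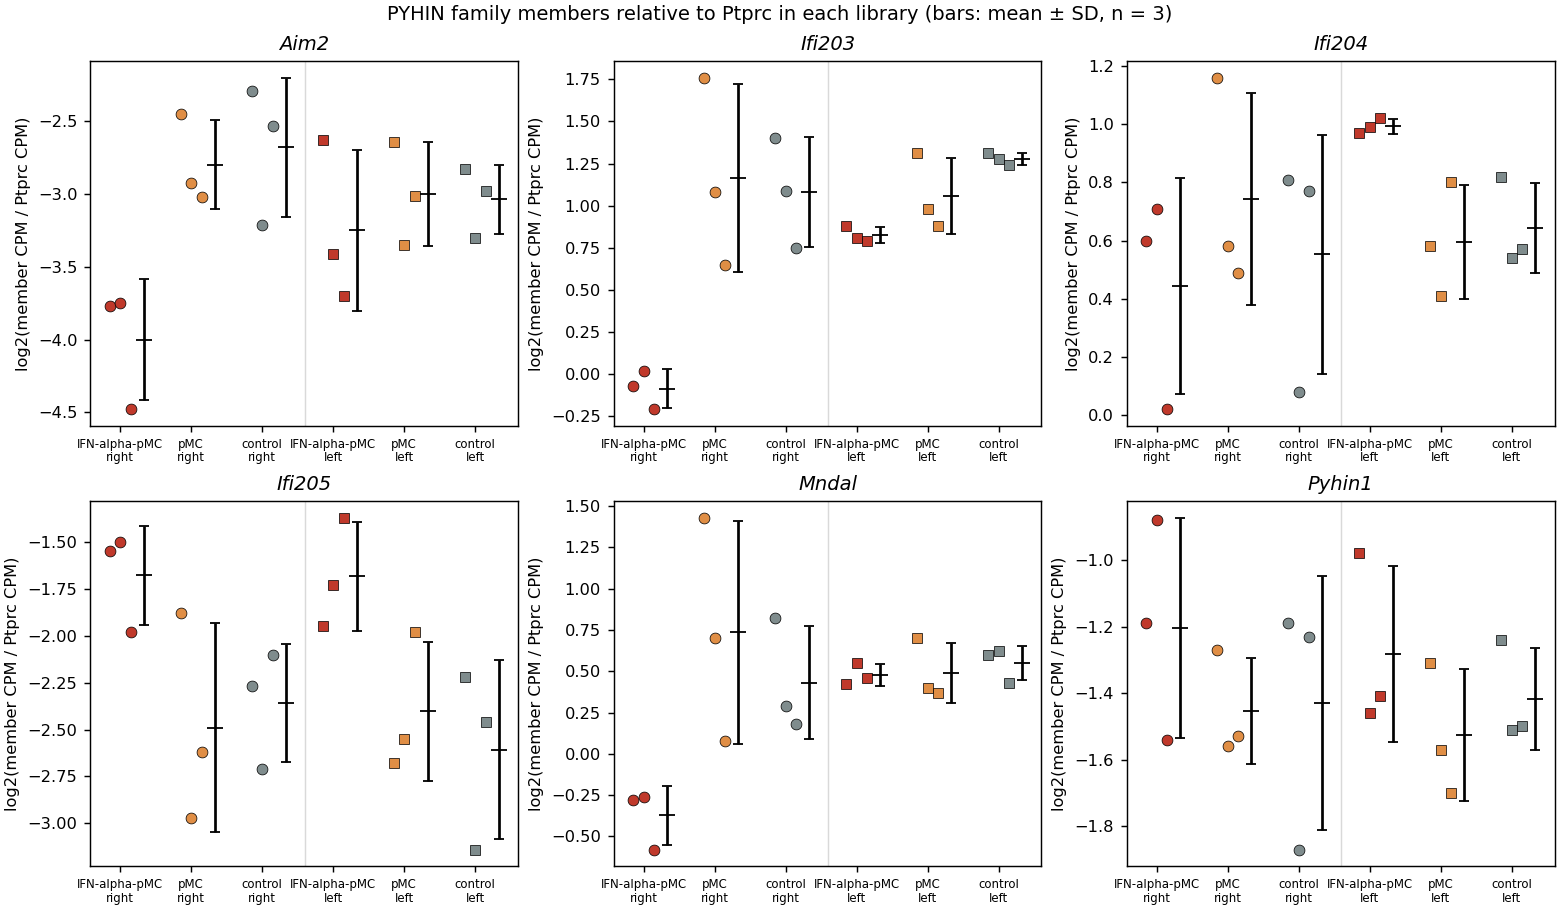
Log2 ratio of each member's CPM to the CPM of Ptprc (y axis, own scale in each panel) in each of 18 libraries by group, with mean and SD of 3 libraries as bars. On the right the IFN-alpha-pMC points lie below the control points for Aim2, Ifi203 and Mndal and above them for Ifi205.

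How alike 2 genes were over the 18 libraries was described by the root mean square difference of their log2 CPM, each centred on its own mean, a measure with no test that shares the libraries, depths and treatment groups of all that precedes. Among the members Ifi203 and Mndal were closest (0.179), then Ifi204 and Pyhin1 (0.264), and Ifi203 and Ifi205 were farthest apart (0.867). Over all genes tested, the closest to Mndal were Gbp3 (0.0922), Irf1 (0.125) and Ifit3 (0.131), and the closest to Ifi203 were Gbp9 (0.147), Sp100 (0.15) and Irf1 (0.168). Those closest to Ifi204 were Isg20 (0.188), Pirb (0.197) and H2-DMa (0.199), and genes close to Pyhin1 included Ccr2 (0.136) and Slfn1 (0.184). Ifi205 was nearest to Gpr141 (0.276), Srgn (0.327) and Acod1 (0.345), and Aim2 to Ddx4 (0.208), Gcnt1 (0.242) and Gimap6 (0.244).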

How the data were processed

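RNA of MO4 tumours was sequenced in 18 stranded mRNA libraries, per the labels' protocols. Each deposited file holds the raw count of pairs for every Ensembl ID in a single library, not normalized, as its whole numbers show. The submitters' processing notes list, with no roles, HTSeq 0.10.0, HISAT2 2.1.0, build mm9, Trimmomatic 0.36, DESeq2 1.20.0, CASAVA 1.8.2, bcl2fastq and FastQC. No source used here gives the annotation release or strand setting, so antisense reads may not have been told apart. Summary rows (pairs in no feature, ambiguous, not unique) stayed out of library sizes and tests, and 60.2 to 70.7% of pairs were assigned to a gene. No p-value or fold change of the authors was used.

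Symbols were matched by Ensembl ID for 32897 of 37620 IDs, and 1 listed alias that pointed to a gene on another chromosome was left out of the PYHIN rows. The test was edgeR's two-sided quasi-likelihood F test (edgeR 4.0.16, R 4.3.3): trimmed-mean scaling, filterByExpr (14849 genes), 1 model with 6 group means over 18 libraries (12 residual degrees of freedom), and Benjamini-Hochberg adjustment over all genes at 0.05. SE is the log2 fold change divided by the square root of F. A count of 0 allows 3 counts. Such floors cover counting error only, because read pairs are not independent molecules. CPM per kilobase used exon lengths of GENCODE M21. Ratios used a pseudocount of 0.1 CPM, and likeness used log2 CPM with a prior count of 2. The code was tested on simulated counts. The members, gene lists and alternatives were chosen with earlier results of these data known. Named genes were the 6 members, the other PYHIN rows, the 3 genes most like each member, and from each list at most the 3 largest changes past the threshold plus a fixed set of markers. A few genes under this rule are not reported here. Alternatives were another scaling, DESeq2 1.42.0, no filter, the compared groups alone, a block by number, a muscle score as covariate, and leaving out libraries.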

Additional observations from a re-analysis of the deposited data

How the results depend on the processing

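No called log2 fold change of a member reversed under any alternative run, while some values that did not pass changed sign (Aim2 in right pMC against control tumours ran from -0.27 to 0.26). In all 1021 values kept their side of the threshold, 44 lost a call and 15 gained one. Most of the 1021 had not passed in the fit used above either, while the 44 all come from the fewer values that had. The count of members called in right against left IFN-alpha-pMC tumours was 1 in the fit used above, where 2.53% of all genes passed in either direction. It was 2 with DESeq2 (3.95% of all genes), with no filter (1.62%) and when only the compared groups were fitted (1.33%). A replicate block (2.61%) and a replicate block by treatment and number (3.09%) also gave 2. So did leaving out the 3 libraries that had the lowest correlation within right control, left IFN-alpha-pMC and right IFN-alpha-pMC tumours (1 from each, 5.75%). Without those 3 libraries the count of members was 1 instead of 0 for right pMC against control tumours, where 33.7% of all genes passed. It was also 1 instead of 0 for the side difference of IFN-alpha-pMC over control, where 5.07% passed. With the muscle score it was 2 instead of 5 for left IFN-alpha-pMC against pMC tumours, where 0.377% of all genes passed instead of 3.85%. For left IFN-alpha-pMC against control, Aim2 (1.29, adjusted p = 0.165) and Pyhin1 (1.63, adjusted p = 0.0586) lost their calls with that score. There 0.606% of all genes passed instead of 6.65%. Leaving out 1 library at a time gave 3 to 5 members for left IFN-alpha-pMC against control (6 in full) and 0 to 4 against pMC (5). Over all genes 0.569 to 3.26% passed against control in these fits (6.65% in full) and 0.219 to 2.74% against pMC (3.85%). For right against left IFN-alpha-pMC it gave 0 to 1 members (1), and 0.933 to 2.4% of all genes (2.53%). Both right comparisons of IFN-alpha-pMC gave 5 to 6 members (5 each). There 7.25 to 26.1% of all genes passed against control (10.8%) and 6.79 to 12.6% against pMC (10.1%). The cause of these changes was not tested, beyond fewer libraries in the fits that leave some out.

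The labels do not say whether same-numbered right and left tumours came from 1 mouse, and the numbers were not taken to pair libraries. Between same-numbered right and left libraries of a treatment, the correlation of deviations from the group means ran from -0.25 to 0.6. Between same-numbered libraries of different treatments on the same side it ran from -0.76 to 0.37. In no comparison were all 3 pairs over 0.1 or did all 6 libraries correlate best with their own number. With the number as a replicate block, 464 genes passed in left IFN-alpha-pMC against control tumours (987 without the block), Aim2 there had 1.11 (adjusted p = 0.0757), and Ifi205 passed between right and left IFN-alpha-pMC tumours (1.21, adjusted p = 0.0114). Over all genes, right IFN-alpha-pMC against control called 1601, and 582 with the compared groups alone, 900 with the muscle score and 8175 without the 3 libraries. Left IFN-alpha-pMC against control called 90 with the muscle score, 3062 with the compared groups alone, 2837 with DESeq2 and 4331 without the 3 libraries. Of the members Aim2 has the fewest counts (1969 over 18 libraries), and of the other rows tested Ifi203-ps (331), Ifi214 (481) and Ifi208 (941).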
